A study of Neurospora crassa with 22 samples.

Results

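The genes of glycolysis and ethanol fermentation in *Neurospora crassa* were examined in RNA-seq of an *hH1* mutant strain, which lacks normal expression of the linker histone H1, and of a wild-type (WT) strain. The 10 genes were chosen by their locus numbers, 1 for each of 10 enzyme steps between glucose 6-phosphate and ethanol. They make up 10 of the 9730 genes in the expression table. Phosphoglycerate mutase, the step between phosphoglycerate kinase and enolase, is not among the 10. Each strain was represented by 3 libraries. Conidia (asexual spores) of both strains were grown for 5 hr in minimal medium with glucose, so that the cells were germinating, although the labels call the tissue mycelium. Neither the labels nor the methods for RNA say whether the mutant allele was the gene deletion or the allele made by repeat-induced point mutation, and both kinds of strain are listed in the study. Expression is given in FPKM, fragments per kilobase of transcript per unit of library depth, so that levels of different genes can be set side by side.

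Glycolysis splits glucose into pyruvate in a series of cytoplasmic steps and yields ATP without oxygen. Its upper part uses ATP to make triose phosphates, and its lower part, which begins with glyceraldehyde-3-phosphate dehydrogenase, regains ATP and makes pyruvate. Pyruvate can enter the mitochondrion, or pyruvate decarboxylase and alcohol dehydrogenase can turn it into ethanol, which frees NAD+ for the lower part. In *N. crassa*, *gpd-1* is also known as the clock-controlled gene *ccg-7*, and the pyruvate decarboxylase made from *cfp* assembles into cytoplasmic filaments.

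The libraries were checked against their labels first. The level of *hH1* itself was 9.35, 2.06 and 3.22 FPKM in the mutant libraries, against 266, 327 and 293 FPKM in the WT libraries. The groups did not overlap (exact permutation test, two-sided, p = 0.1, which is the lower limit for 3 libraries per strain). The strains also differed at the mating type genes. The gene *matA-1* was at 1.75 to 3.83 FPKM in the mutant and listed at 0 in the 3 WT libraries, and the pheromone gene *mfa-1* was at 2.55 to 7.43 FPKM in the mutant and 103 to 303 FPKM in the WT, so absence of H1, mating type and linked background cannot be told apart here. Of 5 marker genes of conidiation, *con-13* was listed at 0 in all 6 libraries, and the summed level of the 5 was 14.8 to 18.7 FPKM in the mutant and 11.3 to 16.7 FPKM in the WT. Most of this sum came from *con-8* and *eas*, whose log2 changes had opposite signs (-0.15 and 0.45, limma adjusted p = 0.818 and 0.398). The strains overlapped for both, and *eas* was at 4.06, 11.9 and 12.1 FPKM in the mutant and 5.64 to 6.33 FPKM in the WT. The summed level of 4 genes of vegetative growth (*hex-1*, *tub-2*, *act* and *chs-1*, most of it from *hex-1*) was 7036 to 7443 FPKM in the mutant and 4344 to 6289 FPKM in the WT, without overlap. The gene *chs-1* ran the other way, at 28.9 to 36.5 FPKM in the mutant and 38.1 to 40.9 FPKM in the WT, and 0 of the 4 passed the threshold (limma adjusted p = 0.0586 to 0.229). The part of these genes in the results was not tested. The estimated depth was 7470000 and 5760000 fragments in the second and the third mutant libraries, could not be determined for the first, and was 6510000 to 11300000 fragments in the WT libraries. Even *pfk*, the gene with the lowest values, held an estimated 2167 to 4317 fragments per kilobase in each of these 5 libraries. The series describes its replicate experiments as biological without saying which cultures the libraries came from, and p-values measure the spread between these libraries only.

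Transcripts of the pathway were among the most abundant in the germinating cells. Enolase, pyruvate decarboxylase and alcohol dehydrogenase ranked among the 8 highest of all genes in every library, from place 4 to 8 in the mutant and from place 1 to 6 in the WT. The places in the mutant count *gpd-1* above these genes, whereas *gpd-1* was listed at 0 in the WT. In the mutant, the order from high to low was *gpd-1* at 32349 ± 4385 FPKM (SD, n = 3), *emp-7* at 10778 ± 1618, *cfp* at 10449 ± 383, *adh-1* at 7386 ± 604, *fba* at 3307 ± 256, *pgk-1* at 2855 ± 452, pyruvate kinase at 2044 ± 181, *tpi* at 1709 ± 109, *pgi* at 1389 ± 200 and *pfk* at 354 ± 20.6. In the WT, the order was *cfp* at 12229 ± 1452 FPKM (SD, n = 3), *emp-7* at 10221 ± 126, *adh-1* at 7043 ± 524, *fba* at 2876 ± 9.85, *pgk-1* at 2449 ± 190, pyruvate kinase at 2410 ± 121, *pgi* at 1627 ± 206, *tpi* at 1273 ± 212 and *pfk* at 380 ± 15.9, with *gpd-1* listed at 0.

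Some neighbors in these orders were not separated by their libraries. In the mutant, the libraries overlapped for *emp-7* and *cfp*, for *fba* and *pgk-1*, and for *tpi* and *pgi*. In the WT, they overlapped for *pgk-1* and pyruvate kinase and for *pgi* and *tpi*. In the mutant, *gpd-1* stood at 3.0 times *emp-7*, a step with no counterpart in the WT, where *gpd-1* was listed at 0. Pyruvate decarboxylase, enolase and alcohol dehydrogenase formed an upper tier in both strains, with *adh-1* at 2.23 times the level of *fba* in the mutant and at 2.45 times in the WT. Phosphofructokinase, which commits sugar to glycolysis, was the lowest gene with values, with the next gene above it at 3.92 times its level in the mutant (*pgi*) and at 3.35 times in the WT (*tpi*).

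**Figure D1:**
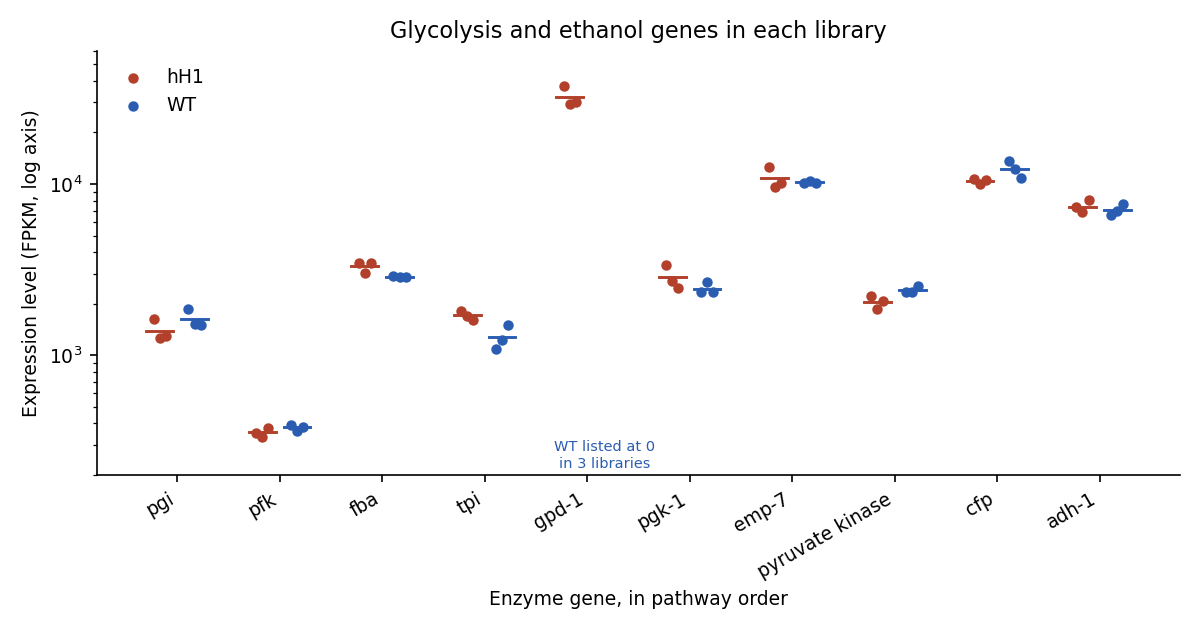
Expression level of the 10 enzyme genes in pathway order, in FPKM on a log axis. Each point is a library (hH1 mutant left in red, WT right in blue, n = 3 each), and bars are means. *pfk* lies lowest at 335 to 394 FPKM over all libraries, and *gpd-1* is at 29444 to 37393 FPKM in the mutant and listed at 0 in the WT.

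The gene *gpd-1* (NCU01528, linkage group II 3180104 to 3182245 of the NC12 assembly) encodes glyceraldehyde-3-phosphate dehydrogenase, the first enzyme of the lower part. It was listed at 37393, 29444 and 30211 FPKM in the mutant libraries, against 0 in each of the 3 WT libraries. In the mutant it was the highest of all genes in every library, at 1.76 to 1.98 times the gene in second place and at 10.8 to 12.2 times *pgk-1*, which encodes the enzyme of the next step. It held 4.68% to 5.85% of the summed FPKM of a mutant library. A 0 in this table can be an estimate that was not made, and cells growing on glucose need this enzyme, so no fold change and no test are given. Of all 9730 genes, *gpd-1* alone was listed at 0 in the 3 WT libraries and above 5 FPKM in the 3 mutant libraries. In the reverse direction, 0 genes were listed at 0 in the 3 mutant libraries and above 5 FPKM in the 3 WT libraries. With the floor at 1 FPKM, *matA-1* joined *gpd-1*, and in the reverse direction NCU08635 was listed at 0 in the mutant and at 5.06, 1.20 and 3.89 FPKM in the WT. The nearest gene on the side of higher coordinates, NCU01527, had values in both strains, at 18.9 to 20.4 FPKM in the mutant and 22.2 to 24.8 FPKM in the WT. On the other side, NCU01529 was at 0 to 0.776 FPKM in the mutant and 0 to 2.67 FPKM in the WT.

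The comparison of strains asked whether loss of H1 went along with a change in these transcripts. Of the 9 genes with values in both strains, 0 passed an adjusted p of 0.05, and 1 (*tpi*) had an unadjusted p under 0.05 (limma, Benjamini-Hochberg over 7208 tested genes). Of all tested genes, 4.99% passed the adjusted threshold and 25.9% the unadjusted one. Changes are on the scale of log2(FPKM + 1), which for levels this high is nearly that of the FPKM themselves. The 9 changes ran from -0.24 to 0.44, with 5 above 0 and 4 below, and their median was 0.066. The median of all tested genes was -0.095 as deposited and 0.010 once library medians were set equal, so most changes are also given relative to the median of -0.095. The 95% intervals of the 9 genes reached from -0.54 at the lowest to 0.73 at the highest. The median size of change, regardless of sign, was 0.21 for the 9 genes and 0.25 for all tested genes. The 2 sets are not matched for level or noise, as the median standard error was 0.125 for the 9 genes and 0.177 for all tested genes. The 3 mutant libraries lay entirely above or below the 3 WT libraries for 4 of the 9 genes (2 higher, 2 lower), against 32.3% of all tested genes (10.4% higher, 21.8% lower). In these bulk libraries, fewer cells of a kind and less RNA per cell cannot be told apart. A p that misses the threshold does not show equal levels. Each interval gives the differences that these libraries leave possible for 1 gene under the deposited scaling.

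**Figure D2:**
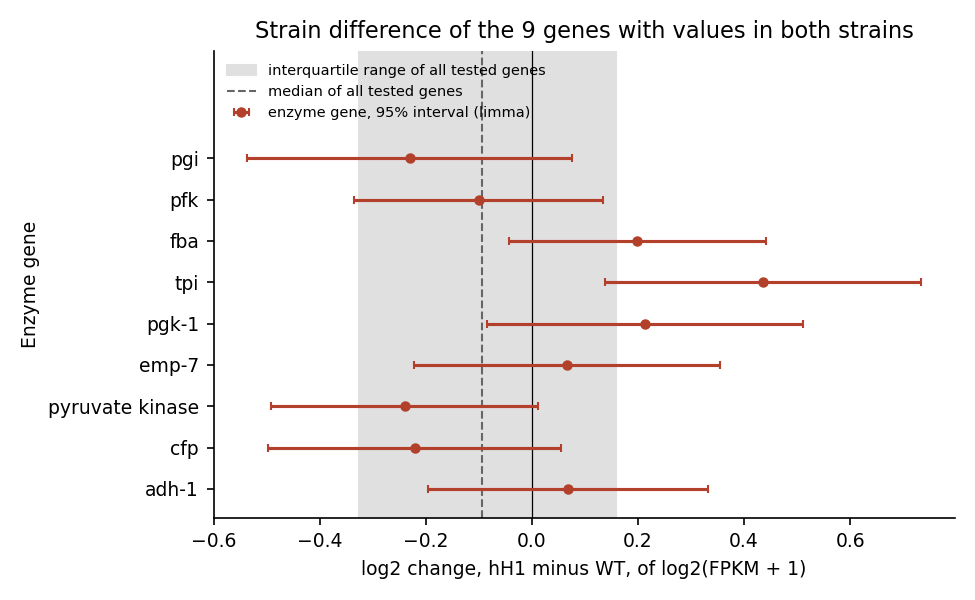
Change of log2(FPKM + 1), hH1 minus WT, for the 9 enzyme genes with values in both strains, with 95% intervals from limma (n = 3 libraries per strain). The gray band spans -0.33 to 0.16, the interquartile range of the 7208 tested genes, and the dashed line is their median of -0.095. Of the 9 intervals, only that of *tpi* lies wholly on one side of 0, and its point and those of *fba* and *pgk-1* lie to the right of the band.

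In the upper part, *tpi* (NCU07550, linkage group III 4405030 to 4406835) encodes triosephosphate isomerase, which interconverts the triose phosphates. It was at 1822, 1701 and 1604 FPKM in the mutant libraries and at 1091, 1222 and 1506 FPKM in the WT libraries. Every mutant library was above every WT library, by a narrow margin over the third WT library. The change was 0.44 (standard error 0.13, 1.35-fold, 95% interval 1.10 to 1.66), or 0.53 relative to the median of all genes, and did not pass the threshold (limma adjusted p = 0.0844). It was the largest change of the 9 genes, and 23.4% of all tested genes had a larger one. The gene crossed the threshold when each library was centred (0.54, adjusted p = 0.0465) and without the third WT library (0.56, adjusted p = 0.0381). Over the 16 alternatives, the change ranged from 0.28 to 0.56 and the limma adjusted p from 0.0381 to 0.271.

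Aldolase (*fba*, NCU07807, linkage group V 220460 to 223264), which cleaves fructose 1,6-bisphosphate into triose phosphates, was at 3466, 3013 and 3444 FPKM in the mutant and at 2884, 2865 and 2879 FPKM in the WT. Again no mutant library overlapped a WT library, and the WT libraries lay very close together. The change was 0.20 (standard error 0.11, 1.15-fold, 95% interval 0.970 to 1.36, limma adjusted p = 0.272), or 0.29 relative to the median of all genes. It kept its sign under 15 of 16 alternatives and was -0.041 after quantile normalization, which included *gpd-1* as listed.

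The other genes of the upper part pointed below 0 and overlapped between strains. Glucose-6-phosphate isomerase (*pgi*, NCU07281, listed as *gpi-1* in the gene table, linkage group IV 4532625 to 4534989) was at 1620, 1256 and 1292 FPKM in the mutant and at 1865, 1522 and 1495 FPKM in the WT. The first library of each strain was the high one. The change was -0.23 (standard error 0.14, 0.852-fold, 95% interval 0.689 to 1.05, limma adjusted p = 0.311), or -0.14 relative to the median of all genes. Phosphofructokinase (*pfk*, NCU00629, listed as *emp-3*, linkage group I 7764287 to 7768767) was at 351, 335 and 376 FPKM in the mutant and at 394, 363 and 382 FPKM in the WT. Its change of -0.10 (standard error 0.11, 0.933-fold, 95% interval 0.793 to 1.10, limma adjusted p = 0.568) lay close to the median of all genes, and its sign turned when each library was centred (0.0046) or when the trend with gene length was removed (0.17). The changes of the 4 upper genes thus had both signs, and 0 of the 4 passed the threshold. The ratio of *tpi* to *pgi* within a library, chosen after their values had been seen and not tested, was 1.12, 1.35 and 1.24 in the mutant and 0.585, 0.803 and 1.01 in the WT.

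In the lower part, phosphoglycerate kinase (*pgk-1*, NCU07914, linkage group IV 1370566 to 1372853), the first enzyme of the pathway to make ATP, was at 3359, 2722 and 2485 FPKM in the mutant and at 2329, 2667 and 2350 FPKM in the WT. The strains overlapped, and the first mutant library stood above the other 5. The change was 0.21 (standard error 0.13, 1.16-fold, 95% interval 0.942 to 1.42, limma adjusted p = 0.333), and 0.090 without the first mutant library. Enolase (*emp-7*, NCU10042, linkage group I 5945167 to 5948228), which makes phosphoenolpyruvate, was at 12629, 9628 and 10078 FPKM in the mutant and at 10112, 10360 and 10191 FPKM in the WT. The mutant libraries enclosed the WT ones. The change was 0.066 (standard error 0.13, 1.05-fold, 95% interval 0.857 to 1.28, limma adjusted p = 0.770), and fell below 0 without the first mutant library (-0.053) and after quantile normalization (-0.21).

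Pyruvate kinase (NCU06075, listed as *ace-8*, linkage group VII 1892860 to 1898500), which turns phosphoenolpyruvate into pyruvate, was at 2216, 1855 and 2062 FPKM in the mutant and at 2334, 2346 and 2549 FPKM in the WT. Every mutant library was below every WT library. The change was -0.24 (standard error 0.11, 0.847-fold, 95% interval 0.711 to 1.01, limma adjusted p = 0.211), or -0.15 relative to the median of all genes, and was 0.076 once the trend with gene length was removed. Phosphoglycerate kinase and pyruvate kinase, the ATP-making enzymes, had changes of opposite sign as deposited, and neither passed the threshold. With the length trend removed both were above 0 (0.25 for *pgk-1*). The ratio of pyruvate kinase to *pgk-1* within a library, chosen after the values had been seen and not tested, was 0.660, 0.681 and 0.830 in the mutant and 1.00, 0.88 and 1.08 in the WT.

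Among the ethanol genes, *cfp* (NCU02193, linkage group VII 3384904 to 3387654) encodes pyruvate decarboxylase, which removes CO2 from pyruvate to give acetaldehyde. It was at 10743, 10016 and 10589 FPKM in the mutant and at 13701, 12188 and 10798 FPKM in the WT. No mutant library reached a WT library, but the third WT library was only slightly above the highest mutant library, and the WT libraries differed more among themselves than the mutant ones. The change was -0.22 (standard error 0.12, 0.858-fold, 95% interval 0.709 to 1.04, limma adjusted p = 0.283), or -0.13 relative to the median of all genes. It was below 0 under all 16 alternatives, from -0.64 after quantile normalization to -0.12. Alcohol dehydrogenase (*adh-1*, NCU01754, linkage group II 2539541 to 2541938), which reduces acetaldehyde to ethanol, was at 7299, 6830 and 8028 FPKM in the mutant and at 6596, 6914 and 7619 FPKM in the WT. The strains overlapped throughout, with a change of 0.068 (standard error 0.12, 1.05-fold, 95% interval 0.873 to 1.26, limma adjusted p = 0.741) that turned to -0.28 after quantile normalization.

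Ratios within a library do not depend on a single factor applied to the whole library. They do change under steps that treat genes of a library differently, such as removal of the length trend or quantile normalization. The ratio of *cfp* to *adh-1* was 1.47, 1.47 and 1.32 in the mutant and 2.08, 1.76 and 1.42 in the WT, so the groups overlapped (two-sided exact permutation test on log2 ratios, p = 0.3, smallest possible 0.1). The ratio of *cfp* to pyruvate kinase, the enzymes that use and make pyruvate, was 4.85, 5.40 and 5.14 in the mutant and 5.87, 5.20 and 4.24 in the WT (exact permutation test, p = 0.9). The changes of these genes were -0.22 and -0.24 as deposited. They were -0.12 and 0.076 with the length trend removed, and -0.64 and -0.35 after quantile normalization. The ratios were not tested under those settings. The range of both ratios was wider among WT libraries than among mutant libraries, with the first WT library highest and the third lowest in each.

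The summed level of the 9 genes without *gpd-1* was 43503, 37354 and 39958 FPKM in the mutant libraries and 41307, 40446 and 39770 FPKM in the WT libraries. The groups overlapped, and the mean log2 difference was -0.011 (two-sided exact permutation test, p = 0.9, smallest possible 0.1). The 9 genes held 6.81%, 5.94% and 6.38% of the summed FPKM of all genes in the mutant libraries, against 7.48%, 7.12% and 6.95% in the WT libraries. Here every mutant library was below every WT library, but the denominator in the mutant includes *gpd-1*. With *gpd-1* left out of it, the shares were 7.23%, 6.23% and 6.71% in the mutant and the same as before in the WT, and the first mutant library fell within the WT range. The summed FPKM of all genes without *gpd-1* was 595838 to 601874 in the mutant and 551935 to 572043 in the WT.

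The 9 genes also varied between libraries of the same strain, and not all in the same way. The first mutant library had 7 of the 9 genes above their own mean over the 6 libraries, the second mutant library 2, and the third 4. The WT libraries had 4, 4 and 5 such genes. Within the WT, the first library had the highest *pgi* and *cfp* and the lowest *tpi* and *adh-1*. The coefficient of variation between libraries had a median of 8.18% over the 9 genes in the mutant (3.67% to 15.8%) and of 7.43% in the WT (0.342% to 16.7%). Among 296 other genes whose mean was 300 FPKM or more, the median was 9.24% in the mutant and 9.70% in the WT.

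**Figure D3:**
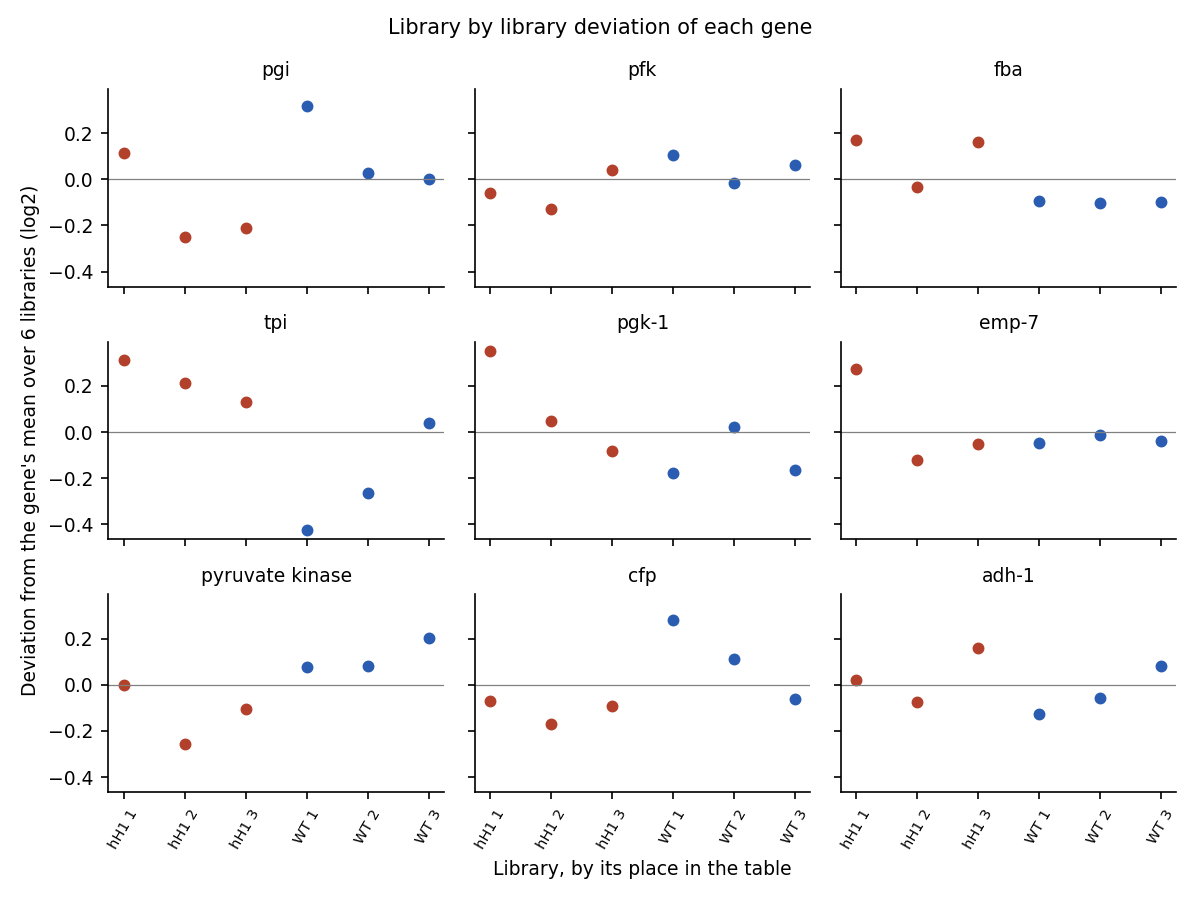
Deviation of each library from the gene's own mean of log2(FPKM + 1) over the 6 libraries, for 9 enzyme genes (hH1 mutant libraries left in red, WT right in blue). For *tpi* and *fba* all 3 mutant points lie above all WT points, and for pyruvate kinase and *cfp* all lie below. For *pgk-1* and *emp-7* the first mutant library lies highest.

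Of the 10 genes, 5 have 2 annotated transcripts, and the less abundant of the pair took a small share of the FPKM in all but *adh-1*. For *adh-1* this share was 33.6%, 31.9% and 28.1% in the mutant libraries and 36.4%, 33.3% and 30.5% in the WT libraries. For *cfp* it was 8.56%, 7.47% and 7.98% in the mutant and 5.30%, 5.73% and 8.11% in the WT, where the third library stood apart from the other 2. The means for pyruvate kinase were 4.46% ± 0.708 in the mutant and 3.91% ± 0.0830 in the WT (SD, n = 3 each). Those for *fba* were 2.79% ± 0.354 in the mutant and 2.40% ± 0.214 in the WT, and those for *emp-7* were 0.724% ± 0.164 in the mutant and 0.666% ± 0.106 in the WT (SD, n = 3 each). The strains overlapped in all 5 genes (two-sided exact permutation tests, p = 0.3 to 0.6, adjusted p = 0.6 for each of 5 comparisons). Cufflinks divides reads among overlapping transcripts by estimation, so these shares are less certain than the gene sums.

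**Figure D4:**
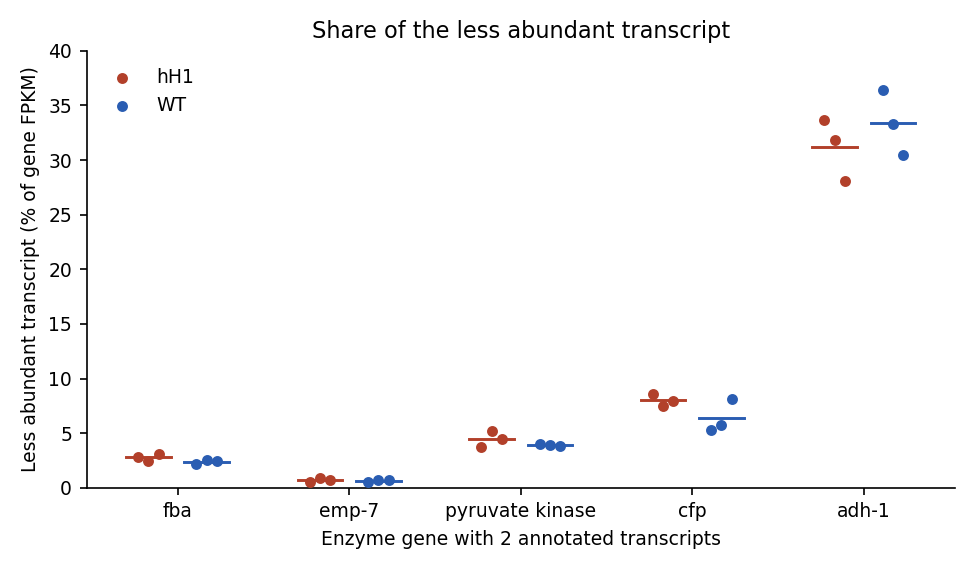
Share of a gene's FPKM in its less abundant transcript, in percent, for the 5 enzyme genes with 2 annotated transcripts. Points are libraries (hH1 mutant left in red, WT right in blue, n = 3 each) and bars are means. The share is 28.1% to 36.4% for *adh-1* and under 9% for the other 4 genes, and the strains overlap in each.

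Gene length moved with the strain difference across all genes and is therefore given beside the changes. With the tested genes split by length into 5 groups of equal size, the median change was 0.12 in the group of shortest genes, 0.021, -0.054 and -0.16 in the next groups, and -0.28 in the group of longest genes. The 2 longest of the 9 genes, pyruvate kinase (5641 bases) and *pfk* (4481 bases), belonged to the group of longest genes, and their changes of -0.24 and -0.10 were both above its median. The shortest, *tpi* (1806 bases), was in group 2 and had the highest change. The changes were 0.20 for *fba* (2805 bases) and -0.22 for *cfp* (2751 bases), and neither passed the threshold. The part of gene length in these changes was not tested beyond the fit with the trend removed. With the trend of each library with length removed, *tpi* stood at 0.39 (limma adjusted p = 0.12), and 0 of the 9 genes were called.

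**Figure D5:**
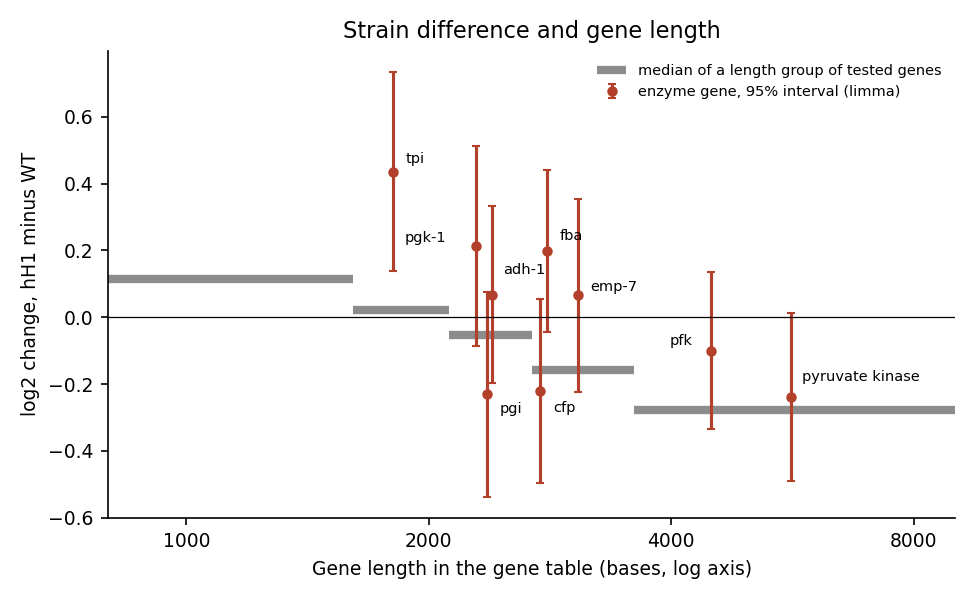
Change of log2(FPKM + 1), hH1 minus WT, of 9 enzyme genes with 95% intervals from limma, against gene length in bases on a log axis. Gray bars are medians over 5 groups of the tested genes by length, which run from 0.12 for the shortest to -0.28 for the longest and are drawn only within the range of the axis. *tpi* lies above the bar of its group, and pyruvate kinase lies close to its bar.

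Genes of neighboring steps were looked up by symbol, and 15 were found outside the 10 enzymes, of which 14 were tested. Of the 14, 0 were higher and 2 were lower in the mutant at an adjusted p of 0.05 (1.73% and 3.26% of all tested genes were), and their median change was 0.027. The count of 0 higher became 2 with each library centred and 1 with the length trend removed. The genes behind it, named after their values were seen, were the hexokinase gene *emp-1* (NCU02542; 0.36, limma adjusted p = 0.113, against 0.0434 centred and 0.0319 with the length trend removed) and *ace-2* (NCU06482; 0.35, limma adjusted p = 0.104, against 0.0444 centred), a gene of the pyruvate dehydrogenase complex. The trehalose synthase gene *ccg-9* (NCU09559), which acts on a storage sugar, was at 22.3, 21.6 and 18 FPKM in the mutant and at 55.5, 40.9 and 54.2 FPKM in the WT, with no overlap. It fell by 1.24 on the log2 scale (standard error 0.16, limma adjusted p = 0.00436), and the adjusted p was 0.00302 to 0.0483 over the alternatives. Phosphoenolpyruvate carboxykinase, the gluconeogenic enzyme encoded by *acu-6* (NCU09873), was at 64.3, 80.4 and 99.0 FPKM in the mutant and at 127, 165 and 145 FPKM in the WT. It fell by 0.85 (standard error 0.17, limma adjusted p = 0.0233), again with no overlap. This call was lost without the first WT library (adjusted p = 0.0848), the second WT library (0.0765) or the second mutant library (0.0660), without limma's variance trend (0.0727) and with transcripts tested on their own (0.0761).

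The most abundant of these 14 genes did not pass the test. The gene *emp-6* (NCU02252) was at 1364 ± 112 FPKM in the mutant and 1325 ± 84.2 FPKM in the WT (SD, n = 3 each), with a change of 0.041 (limma adjusted p = 0.844). For *gcy-1* (NCU04923), a gene of glycerol metabolism, these were 609 ± 49.1 FPKM in the mutant and 464 ± 83.6 FPKM in the WT, with a change of 0.41 (limma adjusted p = 0.119) and no overlap between strains. For *ace-3* (NCU03004), a gene of the pyruvate dehydrogenase complex, they were 451 ± 50.9 FPKM in the mutant and 430 ± 28.6 FPKM in the WT, with a change of 0.063 (limma adjusted p = 0.763). The changes of *emp-6* and *ace-3* turned below 0 after quantile normalization (-0.12 and -0.026). The trehalase gene *tre-1* was under 1 FPKM in all 6 libraries and was not tested.

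The mean profile of the 9 genes over the 6 libraries was set beside those of 819 other genes that averaged 100 FPKM or more. The closest, by Euclidean distance of gene-centred log2 values over 6 libraries, were NCU11338 (distance 0.0939), NCU08004 (0.116), *emp-6* (0.122), NCU02404 (0.134) and *arg-1* (0.147). Their log2 changes between strains lay between -0.042 (*arg-1*) and 0.10 (NCU08004). These small changes follow from the choice, because the mean profile was nearly flat over the same libraries (-0.086 to 0.12). It averages genes of opposite sign and need not resemble any single gene.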

How the data were processed

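Strand-specific RNA-seq libraries were prepared after removal of ribosomal RNA. The deposited values are FPKM per transcript, which the authors made by aligning reads to NC12 with TopHat2 2.0.14 (version from the submitters' processing notes) and estimating levels with Cufflinks (Cuffnorm in the notes, with no version). The scaling between libraries is not stated. The 10785 transcripts were summed to 9730 genes. Column names give the strain and a running number that cannot be tied to the replicates in the labels, so libraries are numbered by their order in the table. The table left 0 columns unused, and the ChIP-seq and MNase-seq samples were not analysed here. Names, positions and lengths came from the RefSeq gene table of NC12, which held all 10 genes, with *tpi* under its locus number only. No sequence was used.

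The 7208 genes that averaged 1 FPKM or more over the 6 libraries were tested as log2(FPKM + 1) with limma 3.58.1 in R 4.3.3 (trend, two-sided, Benjamini-Hochberg, threshold 0.05). Single values per library were tested by exact permutation of 20 labelings. On simulated data with 7207 genes, limma recovered 63 of 100 genes given a log2 change of 1 and 94 of 100 given a change of 2, with 5.99% false among its 167 calls. The changed genes were drawn from all levels. Noise was drawn independently for each gene and library, so effects shared by the genes of a library, such as the length trend, were not simulated. Both sizes exceed the changes of the 9 enzyme genes (-0.24 to 0.44), so recovery at those smaller sizes was not tested. Depth was estimated from the steps that whole fragments leave in low FPKM of 184 transcripts from single-transcript genes (exon lengths from the study's annotation), which holds only if every library was divided by its own number of fragments. It rested on 8 to 13 low values in each of 5 libraries. The first mutant library had 3, too few to fix a depth, and the minimum of 8 was set after these counts had been seen.

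The 10 genes and all lists were chosen with earlier results of these data known. The genes named were the 10 enzymes, *hH1*, the genes of neighboring steps found by symbol (those past the threshold and the 3 highest), the 5 genes with the nearest profile, and genes listed at 0 in 1 strain only. Alternatives were the pseudocount, the filter, single transcripts, centring, quantile normalization, removal of the length trend and the variance settings. Others left out *gpd-1*, with each library scaled back to its own total, or left out 1 library at a time. All other values came from Python 3.11.15 (pandas 2.3.3, numpy 2.4.6 and scipy 1.17.1), and plots from matplotlib 3.10.9.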

Additional observations from a re-analysis of the deposited data

How the results depend on the processing

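With 3 libraries per strain and the deposited scaling, the 95% intervals of the 9 genes, each taken alone, allow up to 1.66-fold upward and 0.689-fold downward. They leave out the choice of scaling, as *cfp* was at -0.64 after quantile normalization, below the lower end of its interval (-0.50). FPKM carry no read totals, and a value of 0 cannot be told apart from an estimate that was not made, which leaves the WT level of *gpd-1* unknown. No paired analysis was possible because the columns of the table do not carry the replicate numbers of the labels.

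Of the 9 genes, 0 were called, against 1 (*tpi*, at 0.54) with each library centred and 1 (*tpi*, at 0.56) without the third WT library, and 0 under the other 14 alternatives. Between 0 and 1 were called over the fits that left out a library. The sign turned for *pfk* after centring (0.0046) and removal of the length trend (0.17), for pyruvate kinase after removal of the length trend (0.076), and for *fba* (-0.041), *emp-7* (-0.21) and *adh-1* (-0.28) after quantile normalization. The quantile normalization included *gpd-1*, the highest gene of each mutant library and listed at 0 in each WT library. Other highly expressed genes therefore stood a rank lower in the mutant than without it, so this alternative includes the WT value of 0. Quantile normalization without *gpd-1* was not run, and the part of *gpd-1* in these sign changes was not tested. *emp-7* ranged from -0.053 to 0.14 and *tpi* from 0.33 to 0.56 over the fits that left out a library. Among other genes, *emp-6* was at -0.12 and *ace-3* at -0.026 after quantile normalization, and both turned in fits without a library, where *emp-6* ranged from -0.022 to 0.093 (below 0 without the first WT or the first mutant library) and *ace-3* from -0.017 to 0.15 (below 0 without the second mutant library). The mean log2 difference of the sum over the 9 genes was -0.011, and 0.094 after centring. It ranged from -0.068 (without the first mutant library) to 0.042 (without the second) over the fits that left out a library, and was also above 0 without the first WT library (0.0031). The cause was not tested.

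The number of genes called among all tested was 360, and was 45 with transcripts tested on their own, 188 without a filter, 135 without the variance trend and 225 with the length trend removed. It ranged from 29 (without the first WT library) to 372 (without the third) over the fits that left out a library. Of the calls, 34.7% were higher in the mutant as deposited, 66.7% after centring, 47.7% after quantile normalization, 48.0% with the length trend removed and 55.1% with *gpd-1* left out and totals rescaled. The last of these scaled each library back to its own total with *gpd-1*, which raised the mutant values and left the WT values unchanged. Library totals were thus not set equal (626049 to 639266 FPKM in the mutant, 551935 to 572043 FPKM in the WT).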
